A study of Mus musculus with 12 samples.

Results

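The genotype difference in the LPS response asks, gene by gene, whether cells of the peritoneal cavity changed with LPS by the same amount in mice without lactoferrin as in wild-type mice. It was measured as an interaction on log2(FPKM + 1), the LPS minus PBS difference in the knockout less that in wild type, so that a positive value means that LPS left the gene relatively higher in the knockout. FPKM, the unit the values were taken to have, counts fragments relative to transcript length and to all mapped fragments. All 12 libraries of the series enter it, 3 from each of 4 groups. These are wild-type C57BL/6J mice given PBS, wild-type mice given LPS, lactoferrin knockout mice given PBS and lactoferrin knockout mice given LPS, each by intraperitoneal injection, with RNA taken from cells of the lavage fluid. The age and sex of the mice, the dose of LPS, the time to lavage and the construction of the knockout allele are stated in none of the sources used here. Libraries are numbered within a group, and whether each number is its own mouse is not said, so the spread behind a p-value is that between libraries and may be technical.

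LPS, the lipopolysaccharide of Gram-negative bacteria, is sensed by the CD14 and TLR4 receptor complex of macrophages, which turns on NF-kB and interferon signalling, cytokines and chemokines. The resting peritoneal cavity holds large macrophages, B cells, mast cells and other leukocytes, and neutrophils and monocytes enter it during inflammation. Lactoferrin, encoded by Ltf, is an iron-binding protein of the secondary granules of neutrophils and of secretions that can also bind LPS. The immediate early genes, which recur below, are switched on within minutes of a stimulus by transcription factors that are already present in the cell, and most of their transcripts are short-lived.

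Few genes passed the test of the interaction, and all of them belong to the immediate early list. That list, of 24 tested genes, was assembled with earlier results of these libraries known, so the membership is no independent evidence. The 4 genes are Egr1, Hbegf, Csrnp1 and Egr2, and each had a higher interaction, with values from 1.15 to 1.59. They are 4 of the 9841 genes tested by limma, or 0.0406%, and no gene passed in the lower direction. Another 15 genes had an adjusted p from 0.05 to 0.1, 14 of them higher and 1, Arntl, lower. At an unadjusted p under 0.05 there were 946 genes (9.61%), 485 higher (4.93%) and 461 lower (4.68%). These shares are the background for the list counts at that p given below with all 12 libraries. By comparison 6123 genes (62.2%) changed with LPS in wild type and 5235 (53.2%) in the knockout by the same fit. In wild type 24.8% rose and 37.4% fell, and in the knockout 19.9% rose and 33.3% fell. Scaling turned this balance: with median-of-ratios scaling 3328 rose and 2857 fell in wild type and 2933 rose and 2401 fell in the knockout, and with upper-quartile scaling the counts were 3130 and 3043, and 2623 and 2617.

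The 4 calls depend on which libraries were used. Leaving out any 1 of 8 libraries left no call, as did leaving out both libraries richest in erythroid RNA, where the interactions of the 4 genes were still 1.17 to 1.71. Without wild-type PBS replicate 3 there were 49 calls, without knockout LPS replicate 2 there were 36, and without knockout PBS replicate 1 there were 11, and each of these held all 4 genes. Without wild-type PBS replicate 2 there were 3 calls, 2 of them among the 4. With 1 library left out the interaction ranged from 1.46 to 1.68 for Egr1 and from 1.28 to 1.48 for Hbegf. It ranged from 1.06 to 1.25 for Csrnp1 and from 1.21 to 1.46 for Egr2. The adjusted p (limma) rose to as much as 0.146 for Egr1 and Hbegf and 0.166 for Csrnp1 and Egr2. At an unadjusted p under 0.05, the fit without wild-type PBS replicate 3 had 631 higher and 540 lower genes of 9841. These are the background for the list counts given below without that library.

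**Figure D1:**
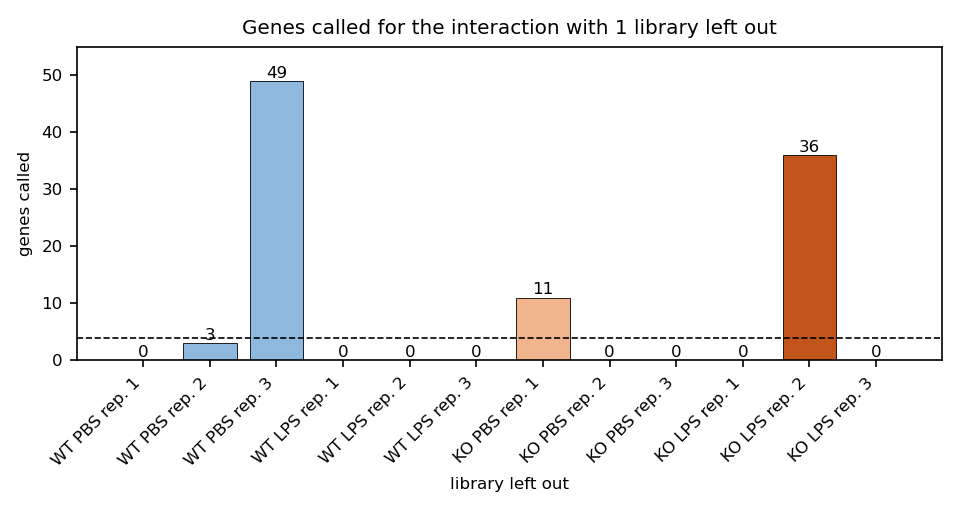
Number of genes called for the interaction (adjusted p under 0.05, limma, vertical axis) after 1 library was left out (horizontal axis, rep. for replicate), with bars coloured by group and the dashed line at the 4 genes called with all 12 libraries. The count was 0 for 8 of the 12 libraries and reached 49 without wild-type PBS replicate 3.

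Totals ran from 344270 to 388464 FPKM, a unit already scaled to all mapped fragments, and 13921 to 14574 genes were above 0. Relative depth, read from ratios of values below 0.2 FPKM, ranged from 0.928 to 0.996 when wild-type PBS replicate 1 is taken as 1. Only 8.83% to 17.9% of these ratios lay near the commonest one, so the numbers of reads in the libraries remain unknown. The most divergent library was wild-type PBS replicate 3, whose Spearman correlations with its group were 0.934 and 0.949, where all other pairs within groups had at least 0.973. Summed erythroid transcripts reached 2240 FPKM in wild-type LPS replicate 2 and 1900 FPKM in knockout LPS replicate 1, against 7.01 to 335 FPKM in the other 10 libraries. Adgre1, the F4/80 antigen of macrophages, had group means from 122 to 351 FPKM and Gata6, the factor that defines large peritoneal macrophages, from 9.67 to 22.5 FPKM. The list of large peritoneal macrophages summed to 5890 to 8350 FPKM, of which 2697 to 4611 FPKM by group mean was Slpi, a gene also on the neutrophil list, and B cell markers summed to 336 to 1860 FPKM. Ltf checks the labels. It was at 1.89, 1.23 and 1.16 FPKM in wild type under PBS, 0.176, 1.33 and 0.275 FPKM in wild type under LPS, 0.183, 0.258 and 0.212 FPKM in the knockout under PBS and 0.117, 0.0832 and 0.0699 FPKM in the knockout under LPS. Within each treatment the knockout values did not overlap those of wild type, and the mean of Ltf was under the 1 FPKM needed for a test. The check is weaker under LPS, where wild-type replicates 1 and 3 were close to the level of the knockout under PBS.

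Egr1 encodes a zinc finger transcription factor of growth and stress responses. Its levels were 27.8, 23 and 25.5 FPKM in wild type under PBS and 8.98, 9.98 and 8.95 FPKM under LPS. In the knockout they were 14.5, 14 and 10.4 FPKM under PBS and 13.8, 13.8 and 18.6 FPKM under LPS. Wild type thus went from the highest group to the lowest with no overlap, while the PBS and LPS libraries of the knockout overlapped. The LPS change was -1.36 ± 0.14 (SE) in wild type (adjusted p = 1.82e-05) and 0.24 ± 0.14 in the knockout (adjusted p = 0.185), and the interaction was 1.59 ± 0.20 (SE, adjusted p = 0.0344, limma), with a 95% interval of 1.15 to 2.04.

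Egr2, a related zinc finger factor of myeloid and lymphoid cells, was at 6.25, 5.39 and 4.82 FPKM in wild type under PBS and 0.462, 0.403 and 0.461 FPKM under LPS. In the knockout it was at 2.31, 1.78 and 1.35 FPKM under PBS and 0.45, 0.596 and 0.665 FPKM under LPS. The genotypes did not overlap under PBS, where the knockout was lower, and did overlap under LPS, where all 6 libraries were under 1 FPKM. Egr2 fell with LPS in both genotypes, by -2.16 ± 0.13 (SE) in wild type and -0.83 ± 0.13 in the knockout, with an interaction of 1.33 ± 0.19 (SE, adjusted p = 0.0446, limma).

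Csrnp1 encodes a nuclear protein that was first described as induced by AXIN1. Wild-type libraries had 16, 14.9 and 13.5 FPKM under PBS and 9.95, 10.1 and 11.1 FPKM under LPS. Knockout libraries had 8.04, 6.3 and 6.35 FPKM under PBS and 10.8, 13.3 and 10.7 FPKM under LPS. The direction of the LPS change was opposite in the genotypes, a fall of -0.47 ± 0.12 (SE, adjusted p = 0.00413) and a rise of 0.68 ± 0.12 (adjusted p = 0.000593), and neither pair of groups overlapped. The interaction was 1.15 ± 0.16 (SE, adjusted p = 0.0446, limma).

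Hbegf encodes a membrane-anchored growth factor that binds the epidermal growth factor receptor. It had the lowest mean over all libraries of the 4 genes, and was at 2.48, 1.66 and 1.88 FPKM in wild type under PBS and 1.59, 1.73 and 1.38 FPKM under LPS. In the knockout it went from 0.495, 0.566 and 0.553 FPKM to 2.04, 2.86 and 2.52 FPKM. The 3 knockout PBS libraries lay below all others, and the wild-type groups overlapped. Hbegf rose in the knockout by 1.17 ± 0.13 (SE, adjusted p = 2.87e-05), the wild-type difference was -0.22 ± 0.13 (adjusted p = 0.149), and the interaction was 1.39 ± 0.18 (SE, adjusted p = 0.0344, limma).

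**Figure D2:**
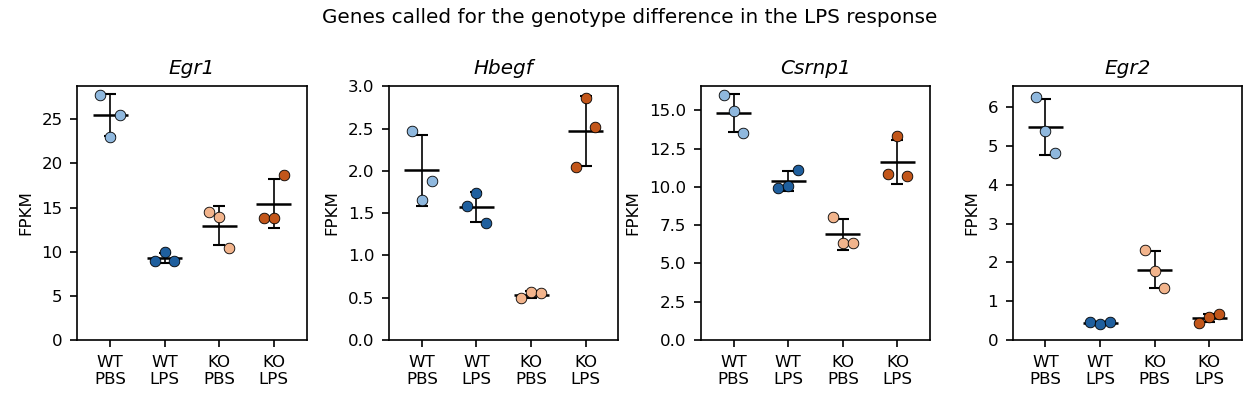
FPKM (vertical axis, linear from 0) of the 4 called genes in each of the 12 libraries (points), by genotype (WT wild type, KO knockout) and treatment, with the group mean (horizontal line) and SD (error bar, n = 3). In all 4 genes the knockout PBS libraries lay below the wild-type PBS libraries, and in Egr1 and Hbegf the knockout LPS libraries lay above the wild-type LPS libraries.

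An interaction is also the knockout minus wild-type difference under LPS less that under PBS, and the 4 genes differed in how these parts added up. All 4 were lower in the knockout under PBS, by -0.93 for Egr1, -0.96 for Hbegf, -1.01 for Csrnp1 and -1.21 for Egr2 on the log2 scale. Under LPS the difference was 0.66 for Egr1 and 0.43 for Hbegf, whose genotypes did not overlap there, and 0.14 for Csrnp1 and 0.12 for Egr2, whose genotypes did. The PBS term was the larger part in all 4 genes. These parts share libraries with the interaction and are a description of it.

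The promoters of the first called genes are shown because the immediate early genes are known for shared promoter elements. The CArG box, bound by serum response factor, and TGAGTCA, bound by AP-1, are such elements, and TGACGTCA is bound by CREB. Among the 3 called genes with a level over 5 FPKM, the RefSeq promoter table held windows for Egr2 and Csrnp1. Of their 5 and 4 annotated starts, 1 window each is printed, chosen after the matches were seen, with 250 bases before the start, 5′ to 3′ on the gene's strand, and matches in capitals. Both strands were searched, and these windows hold no annotated exon.
Egr2, chr10:67537619-67537868 of GRCm38.p6, plus strand: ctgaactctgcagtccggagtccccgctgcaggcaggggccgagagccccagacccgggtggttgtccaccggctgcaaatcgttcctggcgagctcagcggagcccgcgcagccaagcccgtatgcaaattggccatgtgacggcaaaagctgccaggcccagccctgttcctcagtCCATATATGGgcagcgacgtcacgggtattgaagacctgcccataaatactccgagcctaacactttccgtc
Csrnp1, chr9:119983024-119983273 of GRCm38.p6, minus strand: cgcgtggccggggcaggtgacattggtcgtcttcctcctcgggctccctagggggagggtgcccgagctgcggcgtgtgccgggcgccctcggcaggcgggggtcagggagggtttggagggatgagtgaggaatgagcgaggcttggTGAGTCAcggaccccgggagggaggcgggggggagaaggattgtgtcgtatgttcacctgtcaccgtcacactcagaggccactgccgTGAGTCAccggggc
The Egr2 window held a CArG box that began 72 bases before the start, and the Csrnp1 window held TGAGTCA 102 and 14 bases before it. The other Csrnp1 windows held no match to any of these elements. All Egr2 windows but the most upstream held a CArG box, and overlapping windows shared a site. Of 32851 windows of the same length, 1.47% held a CArG box, 4.46% held TGAGTCA and 1.55% held TGACGTCA. No printed window held TGACGTCA. The printed windows were chosen for their matches, so the shares over all windows do not tell how unusual a match in them is. A match describes the letters of the window and shows no binding.

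The immediate early list had 24 tested members, of which 12 had an unadjusted p under 0.05 in the higher direction and 0 in the lower. The share over all tested genes was 4.93% and 4.68%. The median interaction of the list was 0.817, against -0.021 for all genes tested, and the LPS change had a median of -0.873 in wild type and -0.212 in the knockout. In wild type 17 members fell with LPS and 2 rose, and in the knockout 12 fell and 6 rose. The shares over all genes were 37.4% and 24.8% in wild type and 33.3% and 19.9% in the knockout. Scaling by median of ratios moved the median LPS change of all genes from -0.111 to 0.0476 in wild type and from -0.125 to 0.0405 in the knockout. It moved the counts of this list to 15 and 3 in wild type and 10 and 9 in the knockout, and its median interaction to 0.826. The list was assembled with earlier results of these libraries known, so its counts are no independent evidence of a direction.

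Beside the 4 calls, Nr4a1, an orphan nuclear receptor, had the highest interaction of the list, 1.72 ± 0.38 (SE, adjusted p = 0.181, limma). Its levels were 41.5, 34 and 27.4 FPKM and 7.55, 9.25 and 10.5 FPKM in wild type under PBS and LPS, and 39.9, 26.8 and 21.8 FPKM and 29.4, 18.2 and 36.6 FPKM in the knockout. Wild-type LPS libraries lay below all others, and the other 3 groups overlapped. Its relative Nr4a3 had 1.16 ± 0.25, the AP-1 subunit Fosl2 had 1.07 ± 0.24, and Btg2, an antiproliferative factor, had 1.08 ± 0.19 (SE). Maff, a small Maf protein, and Ier3, a survival factor, had 1.10 and 0.9955. Klf4, a Kruppel-like factor of monocytes, was lowest at -0.70 ± 0.40 (SE), having fallen in both genotypes. None of these 7 passed after adjustment.

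The highest interactions by size belonged to transcripts of mature neutrophils. Of 26 tested members of that list, 14 had an unadjusted p under 0.05 in the higher direction (53.8%), 0 in the lower, and 23 were above 0, against 46.8% of all genes tested. None passed after adjustment. The median interaction was 1.24, and the median LPS change was -1.96 in wild type and -0.316 in the knockout. In wild type 19 of the 26 fell with LPS and 3 rose, and in the knockout 6 fell and 6 rose. Over all genes tested 37.4% fell and 24.8% rose in wild type, and 33.3% fell and 19.9% rose in the knockout.

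S100a8, a subunit of calprotectin, was at 1477, 1224 and 907 FPKM in wild type under PBS and 51.4, 103 and 116 FPKM under LPS. Knockout libraries were at 1292, 474 and 519 FPKM under PBS and 1241, 319.5 and 843 FPKM under LPS. The 3 wild-type LPS libraries lay well below the other 9, while the knockout libraries ranged widely under both treatments. The interaction was 3.80 ± 0.72 (SE, adjusted p = 0.106), and that of its partner S100a9 was 3.81 ± 0.75 (adjusted p = 0.114, limma).

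Retnlg, a resistin-like secreted protein, had the highest interaction of all genes tested, 4.11 ± 0.75 (SE, adjusted p = 0.0891, limma). Its levels were 185, 211 and 152 FPKM and 6.37, 10.1 and 11.2 FPKM in wild type under PBS and LPS, and 182, 54.4 and 46.7 FPKM and 139.8, 34.5 and 82.3 FPKM in the knockout. Knockout PBS replicate 1 was about as high as the wild-type PBS libraries, and the other knockout PBS libraries were lower. G0s2, an inhibitor of lipolysis, went from 59.7, 46.9 and 43.2 FPKM to 1.36, 2.18 and 2.44 FPKM in wild type and from 41, 33.1 and 17.7 FPKM to 27, 7.4 and 17.9 FPKM in the knockout, an interaction of 3.23 ± 0.56 (SE, adjusted p = 0.0732).

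Cxcr2, the receptor for Cxcl1 and related chemokines, fell in both genotypes, by -5.15 ± 0.55 (SE) in wild type and -2.72 ± 0.55 in the knockout, and its interaction of 2.43 ± 0.78 had an adjusted p of 0.393 (limma). The decoy receptor Il1r2 had 2.46 ± 0.53 (SE) and the receptor Mrgpra2b 3.34 ± 0.63. Ly6g, the antigen by which neutrophils are commonly gated, was listed at 0 in wild-type LPS replicates 1 and 2 and at 0.348 FPKM in replicate 3. In the knockout it was at 2.01, 0.808 and 0.805 FPKM under LPS and 4.35, 1.36 and 1.71 FPKM under PBS. Slpi, a protease inhibitor and the most abundant member, was at 0.49.

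For neutrophil transcripts the median genotype difference was larger in size under LPS than under PBS. The knockout minus wild-type difference had a median over the 26 members of -0.314 under PBS and 0.876 under LPS, where all 26 were above 0. Over all genes tested these medians were -0.0206 and -0.0406, and 3923 of 9841 genes were above 0 under LPS. In unsorted cells a lower level can come from fewer cells of a type or from less RNA per cell, and these cannot be told apart here. The summed level of the list was 6590 to 9130 FPKM in wild type under PBS, 5600 to 6370 FPKM in wild type under LPS, 4370 to 7670 FPKM in the knockout under PBS and 6820 to 9240 FPKM in the knockout under LPS, with Slpi the largest term.

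**Figure D3:**
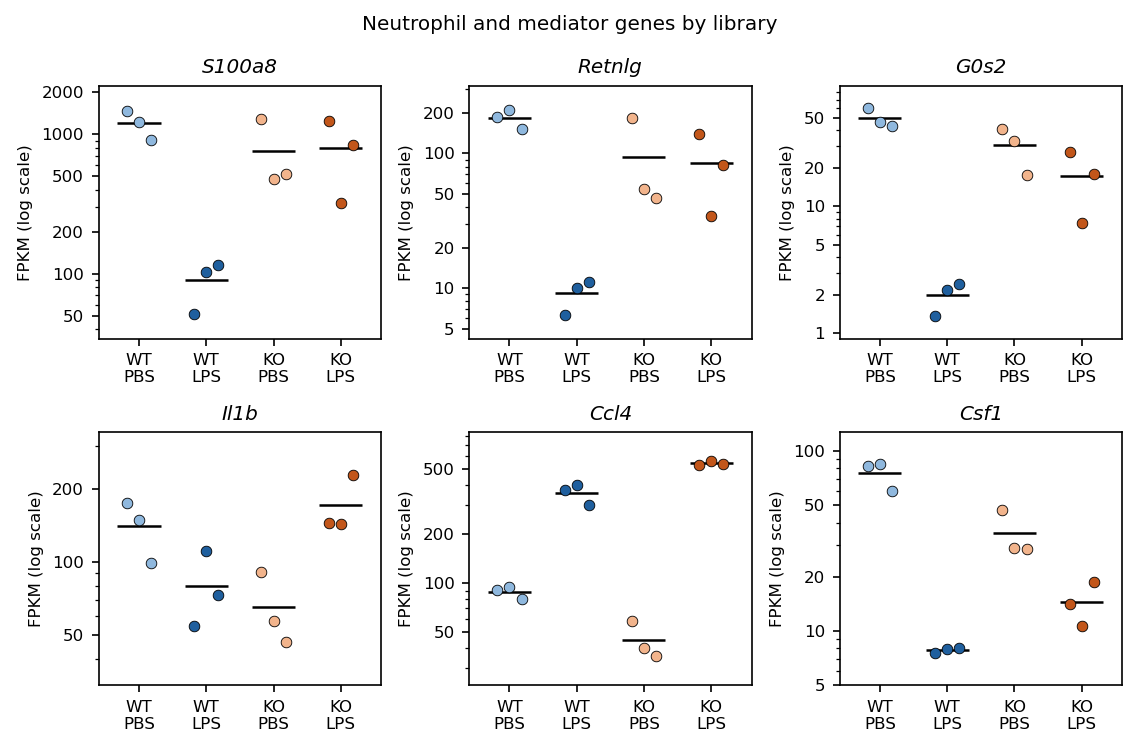
FPKM on a log axis (vertical) of 3 neutrophil transcripts (S100a8, Retnlg, G0s2) and 3 mediators (Il1b, Ccl4, Csf1) in each of the 12 libraries (points), with the mean of each group of 3 (line), by genotype (WT wild type, KO knockout) and treatment. For the neutrophil transcripts the wild-type LPS libraries lay below all others, and for Ccl4 the knockout had the lowest libraries under PBS and the highest under LPS.

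Granule proteins gave mixed values. Of 9 tested members 3 had an unadjusted p under 0.05, all higher, and the median was 0.168, or 0.399 without knockout LPS replicate 2. It was 0.0544 without both libraries richest in erythroid RNA. Lcn2, which binds bacterial siderophores, was at -0.47 ± 0.63 (SE). Ngp, a neutrophil granule protein, was at 1.71, 2.54 and 1.72 FPKM in wild type under PBS and 1.69, 8.12 and 4.55 FPKM under LPS. Knockout libraries were at 0.445, 0.0753 and 0.559 FPKM and 22.2, 8.2 and 30.8 FPKM. The knockout libraries did not overlap between treatments while the wild-type ones did, and Ngp rose in the knockout by 3.82 ± 0.46 (SE), with an interaction of 3.02 ± 0.65. Olfm4, of a subset of neutrophils, had 2.49 ± 0.61 and Chil1, a chitinase-like protein, 2.47 ± 0.75 (SE). Lyz2, the lysozyme of macrophages and neutrophils, was at 0.27 ± 0.44 with all libraries and at -0.164 without wild-type PBS replicate 3.

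Among the mediators of inflammation, Ccl4 came closest to the threshold. Ccl4, a chemokine of activated macrophages, was at 90.3, 94.9 and 80 FPKM in wild type under PBS and 373, 400.2 and 302 FPKM under LPS. In the knockout it was at 58.6, 40 and 35.6 FPKM under PBS and 534, 560.5 and 539 FPKM under LPS. No 2 groups overlapped, and the knockout had both the lowest and the highest libraries. Ccl4 rose in both genotypes, by 2.001 ± 0.17 (SE) and 3.61 ± 0.17, with an interaction of 1.61 ± 0.25 (adjusted p = 0.0524, limma) and a 95% interval of 1.07 to 2.15.

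The chemokine list had 4 of 22 tested members higher and 1 lower at an unadjusted p under 0.05, with a median interaction of 0.51. The counts were 8 and 0 without wild-type PBS replicate 3. Pf4, a chemokine of platelets and macrophages and the most abundant member after Cxcl13, was at 0.56 ± 0.28 (SE). Cxcl3, a CXCR2 ligand, had 2.31 ± 0.55 (SE), the highest of the list. It went from 92.6, 116 and 52.3 FPKM to 356, 387 and 301 FPKM in wild type and from 26.5, 44.8 and 13.1 FPKM to 631, 409 and 600.1 FPKM in the knockout. As with Ccl4, the knockout libraries were the lowest under PBS and the highest under LPS. Ccl3 and Cxcl2 had 1.13 and 1.02. Ccl5, a chemokine for T cells, was lower at -1.12 ± 0.51 (SE), and Cxcl13, a B cell chemokine, was at -1.13 ± 0.56, having risen with LPS in wild type by 1.13 and shown a difference of 0.00 in the knockout.

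Of 33 tested cytokine and NF-kB target genes, 7 were higher and 1 was lower at an unadjusted p under 0.05, with a median of 0.16. There were 13 higher and 0 lower without wild-type PBS replicate 3, with a median of 0.371. The most abundant members were the acute phase gene Saa3, at -0.51 ± 0.46 (SE), and Marcksl1, at -0.01 ± 0.33. Il1b, the main secreted interleukin 1, was at 174, 149 and 99.3 FPKM in wild type under PBS and 54.7, 111 and 73.2 FPKM under LPS. Knockout libraries were at 91.2, 57.6 and 47 FPKM and 145, 143 and 226 FPKM. Il1b fell in wild type by -0.84 ± 0.32 (SE, adjusted p = 0.0369) and rose in the knockout by 1.40 ± 0.32 (adjusted p = 0.00326), although the wild-type groups overlapped, and the interaction was 2.24 ± 0.45 (adjusted p = 0.124, limma).

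Csf1, the growth factor of macrophages, fell in both genotypes. It was at 82.7, 84.5 and 60.1 FPKM and 7.47, 7.88 and 8 FPKM in wild type under PBS and LPS, and at 47, 29 and 28.5 FPKM and 14, 10.6 and 18.6 FPKM in the knockout. Wild type was higher than the knockout under PBS and lower under LPS. The change was -3.11 ± 0.22 (SE) in wild type and -1.21 ± 0.22 in the knockout, and the interaction was 1.90 ± 0.31 (SE, adjusted p = 0.0691, limma). Tnf had 1.41 ± 0.56, Il1rn, the interleukin 1 receptor antagonist, 1.24 ± 0.34, Osm, a cytokine of the interleukin 6 family, 1.28 ± 0.39, and Ptgs2, the inducible cyclooxygenase, 1.17 ± 0.39 (SE). Edn1, the precursor of endothelin, was lower at -0.75 ± 0.34. None of these 5 passed after adjustment.

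For 6 other mediators, chosen after their values were seen, the test called no genotype difference, and the intervals give the range that these libraries allow. Nos2, the inducible nitric oxide synthase, was at 107 ± 15.7 FPKM in wild type and 109 ± 40.3 FPKM in the knockout under LPS (SD, n = 3), and its interaction was 0.12, with a 95% interval of -0.84 to 1.09. Csf3, the granulocyte colony-stimulating factor, had 0.44 (-0.25 to 1.14) and Cxcl10, an interferon-induced chemokine, -0.35 (-1.73 to 1.03). Cxcl1 had 0.29 (-1.13 to 1.72), Il6 -0.60 (-2.59 to 1.40) and Ptx3, a soluble pattern receptor, -1.06 (-2.75 to 0.64). These intervals are wide, so differences of 1 on the log2 scale in either direction were within reach for Cxcl10, Cxcl1 and Il6. The sign of the interaction of Nos2, Cxcl1, Cxcl10 and Il6 changed when single libraries were left out.

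Over all genes the interval of the interaction lay inside 1 in either direction for 8166 of 9841 genes (83%). Of the 6730 genes that changed with LPS in at least 1 genotype it did so for 5409 (80.4%). Of the 2046 genes that changed by over 1 in wild type it did so for 1138 (55.6%). The interaction was over 1 in size in 200 genes, 156 higher and 44 lower, and over 2 in 28 genes, 27 higher and 1 lower.

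**Figure D4:**
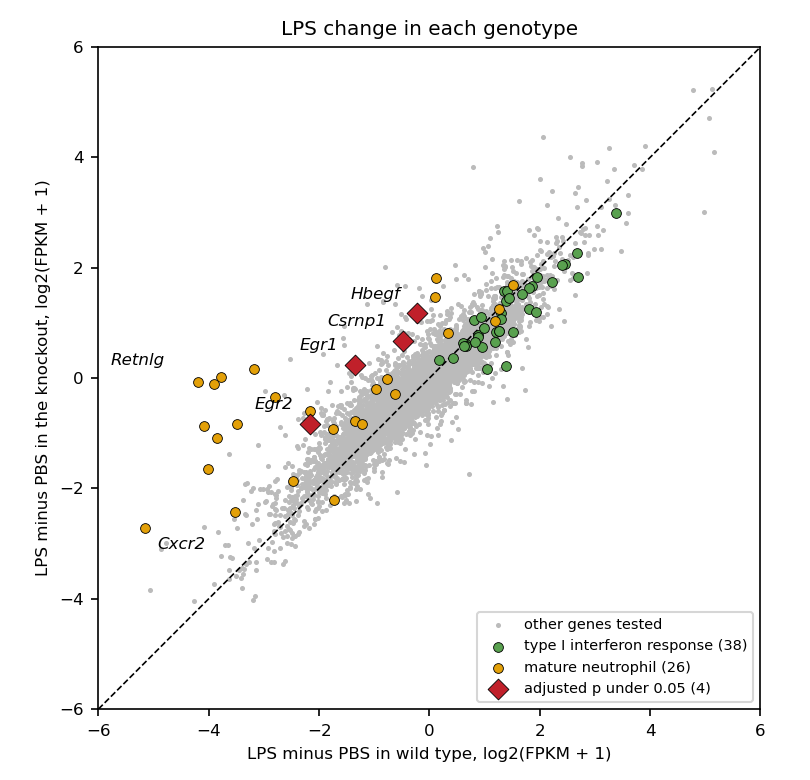
LPS minus PBS difference in the knockout (vertical axis) against that in wild type (horizontal axis), both on log2(FPKM + 1), for the 9841 genes tested (points), with type I interferon response genes, mature neutrophil genes and the 4 called genes marked; the dashed line marks an equal difference, and the distance above it is the interaction. Most neutrophil genes lay above the line at a fall in wild type, and 30 of 38 interferon genes lay below it.

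Interferon genes were induced in both genotypes. Of 38 type I interferon response genes 35 rose in wild type and 33 in the knockout, with medians of 1.3 and 1.05. Over all genes tested 24.8% and 19.9% rose. The interaction had 0 of 38 members at an unadjusted p under 0.05 in either direction, with a median of -0.172 and 30 members below 0, against 53.2% of all genes. The median was 0.0111 without wild-type PBS replicate 3 and -0.308 without knockout LPS replicate 2. Isg15, a ubiquitin-like protein and the most abundant member, had -0.39, with a 95% interval of -1.23 to 0.46. Lgals3bp, a secreted galectin ligand, was at 0.18 ± 0.24 (SE). In the interferon gamma list 1 of 26 members was lower at an unadjusted p under 0.05 and 0 were higher, with a median of -0.113, which was 0.0303 without wild-type PBS replicate 3 and -0.321 without knockout LPS replicate 2. Gbp2, a guanylate-binding protein, had -0.31 ± 0.34 (SE). The knockout minus wild-type difference of the interferon gamma list had medians of -0.275 under PBS and -0.411 under LPS. Under PBS 21 of 26 members were below 0, against 5392 of 9841 genes, and under LPS 0 were above 0, against 3923. For the type I list these medians were 0.274 and 0.0655, with 4 of 38 below 0 under PBS and 26 above 0 under LPS.

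Of 23 LPS sensing genes 2 were higher and 2 were lower at an unadjusted p under 0.05, with a median of -0.0427. The counts were 4 and 3 and the median 0.0592 without wild-type PBS replicate 3. The members are receptors, adaptors and kinases. Tlr2, the receptor for bacterial lipoproteins, was at 1.27 ± 0.37 (SE) and rose in the knockout by 0.81, against -0.46 in wild type, which did not pass. Irak2, a kinase of the receptor complex, was at 0.70 ± 0.20, Myd88, the adaptor of most Toll-like receptors, at 0.13 ± 0.25, and Cd14, the co-receptor for LPS, at 0.79 ± 0.41. Of 27 negative regulators of Toll signalling 3 were higher and 0 were lower, with a median of 0.16. Leaving out wild-type PBS replicate 3 gave 11 higher and a median of 0.4, while the higher genes among all tested went from 485 to 631. Nfkbia, the NF-kB inhibitor, was at 0.16 ± 0.28 (SE) and Socs3, a suppressor of cytokine signalling, at 0.39 ± 0.35. Cish, of the same family as Socs3, was at 12.7, 10.7 and 7.94 FPKM and 5.16, 8.4 and 5.76 FPKM in wild type under PBS and LPS, and at 5.03, 3.21 and 2.13 FPKM and 9.43, 9.29 and 11 FPKM in the knockout. Its knockout PBS libraries lay below all others, and the interaction was 1.96 ± 0.33 (SE, adjusted p = 0.0732, limma). The phosphatase gene Dusp1 had 0.84 ± 0.36 and Zfp36, which promotes decay of cytokine transcripts, 0.70 ± 0.29.

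The C-type lectin and CD300 receptor list gave 8 of 16 members higher at an unadjusted p under 0.05 and 0 lower, with a median of 0.749. With LPS 12 of 16 fell and 1 rose in wild type and 9 fell and 2 rose in the knockout, with medians of -2.18 and -1.25. Of all genes tested 37.4% fell and 24.8% rose in wild type, and 33.3% fell and 19.9% rose in the knockout. Clec4e, the receptor Mincle, rose in both genotypes, and Cd209a, a lectin of dendritic cells, rose in the knockout. Clec4e had an interaction of -0.15 ± 0.56 (SE) and Clec4d, the other abundant member, 0.76 ± 0.40. Clec7a, the receptor for fungal glucans, went from 114, 94.7 and 80.4 FPKM to 2.72, 1.52 and 2.78 FPKM in wild type and from 72.8, 41.5 and 41.5 FPKM to 8.3, 3.33 and 4.18 FPKM in the knockout. The knockout was lower than wild type under PBS and higher under LPS, no groups overlapped, and the interaction was 1.77 ± 0.42 (SE, adjusted p = 0.205, limma). Clec4n, a mannan receptor of the same cluster as Clec4d and Clec4e, had 1.79 ± 0.43. Cd300lf, an inhibitory receptor, and Cd300lb, an activating one, had 1.61 ± 0.34 and 1.23 ± 0.26 (SE).

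**Figure D5:**
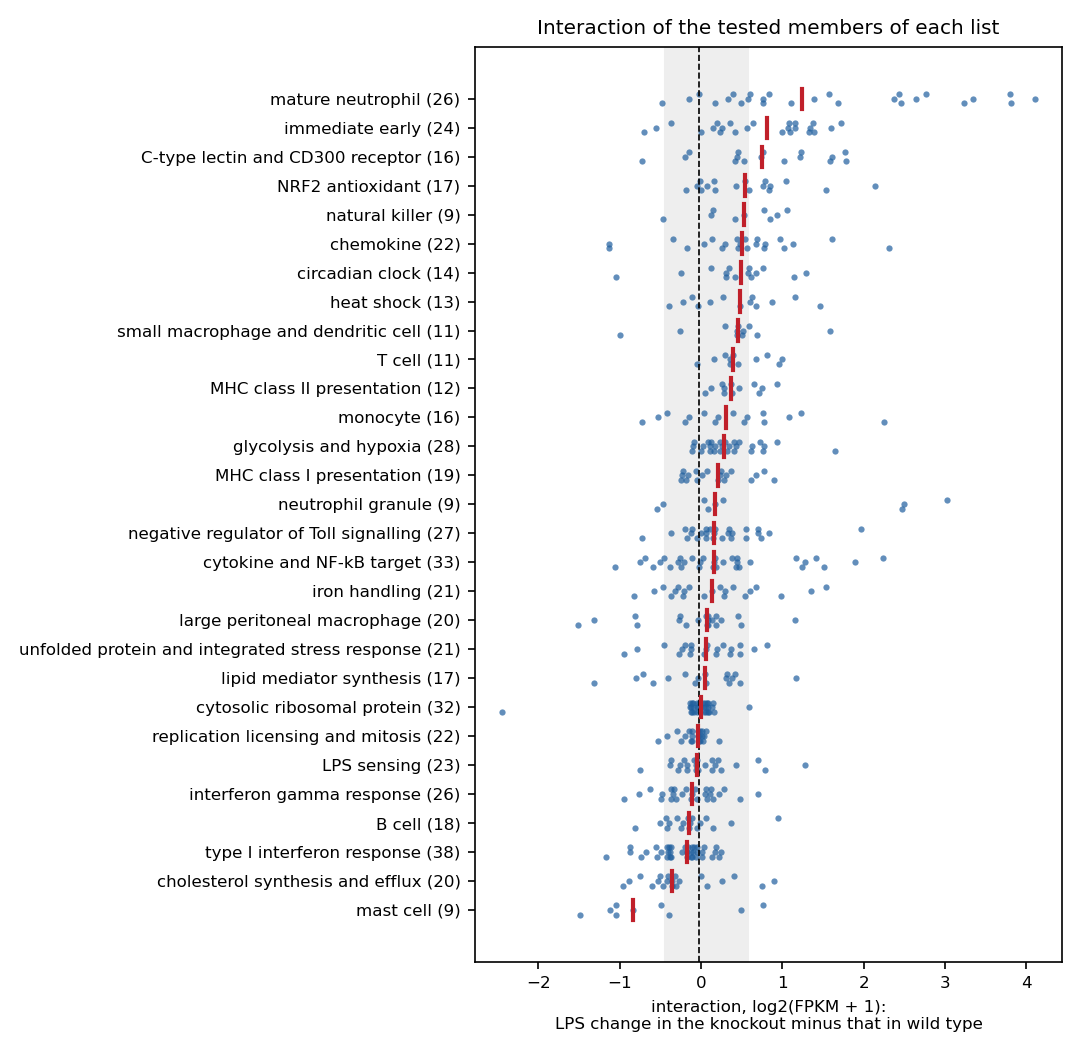
Interaction on log2(FPKM + 1) (horizontal axis) of each tested member (points) of 29 gene lists with at least 9 tested members (rows, number tested in brackets), with the median of the list (red line), the median of all genes tested (dashed line) and the range from -0.447 to 0.58 that holds the middle 90% of all genes (grey). The mature neutrophil, immediate early and C-type lectin lists had the highest medians, and the mast cell list the lowest.

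Genes just outside the threshold and outside the groups above were of several kinds. Tnfaip6, a hyaluronan-binding protein induced by Tnf, was at 1.76, 1.71 and 1.51 FPKM in wild type under PBS and 0.666, 0.838 and 0.919 FPKM under LPS, and at 0.666, 0.753 and 0.524 FPKM and 2.2, 1.26 and 2.17 FPKM in the knockout. Its LPS change was opposite in the genotypes, -0.56 ± 0.14 (SE) and 0.79 ± 0.14, both called, and the interaction was 1.35 ± 0.20 (adjusted p = 0.0504, limma). Entpd1, the ectonucleotidase CD39, was at 25, 24.4 and 24.1 FPKM and 4.1, 3.19 and 4.42 FPKM in wild type under PBS and LPS, and at 15.4, 11.3 and 10.2 FPKM and 8.97, 7.19 and 4.85 FPKM in the knockout. It fell in both, with the knockout between the wild-type levels, and had 1.64 ± 0.27 (SE).

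Smox, the spermine oxidase, had 2.33 ± 0.43 (SE), Plk3, a stress kinase, 1.36 ± 0.23, and Rcan1, a calcineurin inhibitor, 0.97 ± 0.17. Errfi1, a feedback inhibitor of the epidermal growth factor receptor, had 0.94 ± 0.17 (SE), with a fall in wild type of -0.95 and a difference of -0.01 in the knockout. Igip had 1.13 ± 0.17 and Rasip1, a Ras-interacting protein of endothelial cells, 1.03 ± 0.17. Arntl, which encodes the clock factor BMAL1, was the only gene of the 15 in the lower direction. It was at 2.56, 1.93 and 1.5 FPKM in wild type under PBS and 4.92, 5.09 and 4.32 FPKM in the knockout, and at 1.06, 1.19 and 1.19 FPKM and 1.08, 0.844 and 1.15 FPKM under LPS. The genotypes were apart under PBS and overlapped under LPS, and the interaction was -1.05 ± 0.18 (SE, adjusted p = 0.0732, limma).

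Mast cell genes gave the lowest median interaction of the lists with at least 9 tested members. Of 9 tested mast cell genes 3 were lower and 1 was higher at an unadjusted p under 0.05, and the median was -0.84. Without wild-type PBS replicate 3 there were 5 lower and 2 higher. Srgn, a proteoglycan core protein that other leukocytes also make, was at 0.49 ± 0.31 (SE). Cma1, a mast cell chymase, was at 161 ± 65.1 FPKM and 239.5 ± 12 FPKM in wild type under PBS and LPS, and at 225 ± 49.1 FPKM and 169 ± 7.88 FPKM in the knockout (SD, n = 3), with an interaction of -1.05 ± 0.38 (SE), and Tpsb2, a tryptase, had -1.12 ± 0.43. Among 20 genes of large peritoneal macrophages 1 was lower and 1 was higher, with a median of 0.0754 that became -0.434, with 7 lower, without wild-type PBS replicate 3. Thbs1, which encodes thrombospondin 1, was at -0.79 ± 0.36 (SE). Timd4, a receptor for phosphatidylserine on resident macrophages, was at 82.7, 47.4 and 111 FPKM and 145, 87.9 and 78.1 FPKM in wild type under PBS and LPS, and at 109, 198 and 204 FPKM and 76.6, 74.4 and 72.7 FPKM in the knockout. It fell in the knockout by -1.13 ± 0.33 (SE), with an interaction of -1.52 ± 0.46 (adjusted p = 0.362, limma). Cd9, a tetraspanin of the same list, was higher at 1.16 ± 0.32.

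Serpinb2, a serpin of activated macrophages, was at 663, 519 and 259 FPKM and 484, 411 and 396 FPKM in wild type under PBS and LPS, and at 1098, 1697 and 1038 FPKM and 439, 416 and 393 FPKM in the knockout. The knockout PBS libraries were above all others, and the interaction was -1.52 ± 0.42 (SE, adjusted p = 0.301, limma). Clec12b, an inhibitory lectin receptor, rose in wild type from 0.367, 0.139 and 0.0862 FPKM to 2.85, 2.97 and 2.99 FPKM. In the knockout it was at 0.928, 1.4 and 0.266 FPKM under PBS and 0.982, 0 and 0.869 FPKM under LPS, an interaction of -1.95 ± 0.38 (adjusted p = 0.11). These 2 genes were chosen after their values were seen.

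T cell and natural killer transcripts had knockout values mostly below wild type under both treatments. Of 11 T cell genes 3 were higher and 0 lower at an unadjusted p under 0.05 (median 0.394), and of 9 natural killer genes 3 were higher and 0 lower (median 0.527). Without wild-type PBS replicate 3 the natural killer list had 6 higher and a median of 0.804. The knockout minus wild-type difference under PBS was below 0 in 11 of 11 T cell genes and 9 of 9 natural killer genes, with medians of -0.753 and -0.734, against 5392 of 9841 genes. Under LPS the medians were -0.233 and -0.151, with 0 of 11 and 2 of 9 above 0, against 3923 of 9841 genes. Cd2 and Thy1, the most abundant members of the T cell list, had interactions of -0.05 ± 0.28 and 0.68 ± 0.37 (SE). In wild type under PBS the mean log2(FPKM + 1) of Cd2 was 6.54, far above the 2.61 of Cd3e. Gzmb and Nkg7, of cytotoxic granules, had interactions of 0.42 ± 0.55 and 0.85 ± 0.35 (SE). Cd3e, a chain of the T cell receptor complex, had an interaction of 0.99 ± 0.33 (SE). Klrb1c, the NK1.1 antigen, had 0.93 ± 0.18 and levels no higher than 2.83 FPKM.

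Among the metabolic lists, glycolysis and hypoxia genes had 6 of 28 members higher at an unadjusted p under 0.05 and 0 lower, with 25 above 0 and a median of 0.278. Of all genes tested 4.93% were higher and 4.68% lower at that p, and 46.8% were above 0. Egln3, an oxygen-sensing hydroxylase, had 1.65 ± 0.41 (SE) and Slc2a1, a glucose transporter, 0.78 ± 0.35, while the abundant enzymes Ldha and Eno1 were at 0.00 ± 0.23 and 0.11 ± 0.20. NRF2 antioxidant genes had 5 of 17 higher and 0 lower, with a median of 0.544. There were 9 higher without wild-type PBS replicate 3, while the higher genes among all tested went from 485 to 631. The median was 0.349 without both libraries richest in erythroid RNA. Slc7a11, the cystine transporter, had 2.14 ± 0.62 (SE), Nfe2l2, which encodes NRF2, 0.85 ± 0.27, Txn1, a thioredoxin, -0.04 ± 0.24, and Gpx1, the most abundant member, -0.18 ± 0.28. Iron handling genes, the group closest to the known function of lactoferrin, had 3 of 21 higher and 1 lower, with a median of 0.138. Cd163, the receptor for haemoglobin and haptoglobin complexes, was at 1.08, 1.01 and 2.43 FPKM and 0.913, 0.75 and 0.492 FPKM in wild type under PBS and LPS, and at 0.955, 1.27 and 1.37 FPKM and 3.45, 2.76 and 2.65 FPKM in the knockout. The knockout LPS libraries were the highest, and the interaction was 1.35 ± 0.27 (SE, adjusted p = 0.135, limma). Ftl1, the ferritin light chain, had 0.67 ± 0.46. Fth1, the ferritin heavy chain, had 0.29 ± 0.53. The median of the iron list was 0.147 without both libraries richest in erythroid RNA, 0.233 with 6 higher without wild-type PBS replicate 3, and 0.334 without knockout LPS replicate 2.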

How the data were processed

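RNA of peritoneal lavage cells was sequenced in 12 libraries, 3 in each of 4 groups, grouped and numbered by their labels. Knockout libraries carry "wild type" in their titles but knockout in their other labels, and the latter was followed. The authors deposited 1 table per library. Its unit is not stated and was taken as FPKM, since values are not whole and Cufflinks was used, per the submitters' processing notes. Those notes also list HTSeq, DESeq, TopHat and GRCm38, without versions or roles. Whole reads could not be recovered, since in libraries set against wild-type PBS replicate 1 only 8.83% to 17.9% of ratios of values below 0.2 FPKM lay within 2% of the commonest ratio. Counting intervals are therefore not given.

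Of 21878 rows, 27 with symbols turned into dates were left out, and 9841 of 21851 genes had a mean of at least 1 FPKM and were tested. A linear model of log2(FPKM + 1) with 1 mean per group was fitted to all 12 libraries (limma 3.58.1 in R 4.3.3, variance trend and robust shrinkage, 8 residual degrees of freedom). Differences on this scale understate the change of low genes. Tests were two-sided, with Benjamini-Hochberg adjustment over all genes tested and a threshold of 0.05, and the median SE of the interaction was 0.199.

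By rule the text names Ltf, up to 12 called genes in each direction with a group mean of at least 5 FPKM (leaving out predicted genes and receptor segments), and from each list up to 4 called members, or otherwise its 2 most abundant, of which 1 gene is not reported here. The genes with an adjusted p from 0.05 to 0.1 and all others were chosen after their values were seen. The members and the gene lists were chosen with earlier results of these data known. Alternatives were 2 other added constants, 2 other filters, 2 scalings, another variance model, library weights, a replicate block and left-out libraries. Promoters came from the RefSeq table of GRCm38.p6.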

Additional observations from a re-analysis of the deposited data

Results flagged for a closer look

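The interaction itself is a test of a difference between genotypes, so each gene that passed it is given here. By limma the LPS response differed between the knockout and wild type by 1.59 for Egr1 (adjusted p = 0.0344), 1.39 for Hbegf (adjusted p = 0.0344), 1.33 for Egr2 (adjusted p = 0.0446) and 1.15 for Csrnp1 (adjusted p = 0.0446), each on the log2(FPKM + 1) scale and each with 3 libraries in a group. For Egr1, Csrnp1 and Egr2 every wild-type LPS library was below every wild-type PBS library. For Hbegf and Csrnp1 every knockout LPS library was above every knockout PBS library. Groups of 3 libraries are too small for a test of outlying samples.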

How the results depend on the processing

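The number of genes called for the interaction, 4 with all 12 libraries, changed under most settings. It was 2 (both higher) with 0.5 added before the log, 1 higher with a filter at a mean of 5 FPKM, and 1 in all (0 higher and 1 lower, the histone gene Hist1h4f) with no filter. It was 7 (7 higher) with median-of-ratios scaling, 8 (8 higher) with upper-quartile scaling, 7 (7 higher) without the variance trend and 225 (191 higher and 34 lower) with library weights. It was 0 (0 higher) without the 2 libraries richest in erythroid RNA, with 842 genes at an unadjusted p under 0.05. With the replicate number as a block it was 0 (0 higher), and the smallest adjusted p was 0.0912, for Ccl4. That fit had 899 genes at an unadjusted p under 0.05, and the LPS counts were 5991 in wild type and 5077 in the knockout. Same-numbered libraries correlated in their deviations by -0.25 to 0.19, and 4 of 12 libraries matched their own number best. With 1 library left out the counts ran from 0 to 49 in all, 0 to 43 higher and 0 to 6 lower. The cause of these differences was not tested. The totals of genes changed with LPS in a genotype stayed within 1.5 times the reported ones under every alternative, but both scalings turned their balance of rises and falls, from 2443 and 3680 to 3328 and 2857 in wild type and from 1958 and 3277 to 2933 and 2401 in the knockout with median of ratios.

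Of 153 genes followed, 123 kept the sign of the interaction in every one of the 22 alternatives in which they were tested. With 1 library left out the sign turned for Lyz2 (-0.164 to 0.508), Nos2 (-0.139 to 0.419), Il6 (-1.05 to 0.20), Cxcl1 (-0.148 to 0.712), Cxcl10 (-0.795 to 0.151), Hba-a1 (-0.423 to 4.37), Lcn2 (-0.834 to 0.0218), Hp (-0.571 to 0.539), Ly6d (-0.585 to 0.103), Cd79a (-0.333 to 0.173), Cd2 (-0.19 to 0.218), Hbb-bs (-0.411 to 5.1), Col1a1 (-0.618 to 0.147), Ppbp (-0.0133 to 1.19) and Marcksl1 (-0.228 to 0.294). It also turned for Nfkbia (-0.009 to 0.437), Myd88 (-0.0423 to 0.369), Clec4e (-0.587 to 0.406), Ldha (-0.143 to 0.184), Fth1 (-0.166 to 0.789), Txn1 (-0.246 to 0.116), Hspa5 (-0.30 to 0.447), Calr (-0.0448 to 0.409), Hsp90ab1 (-0.0608 to 0.246), Pcna (-0.294 to 0.0126), Mcm3 (-0.209 to 0.172), Ptges (-1.04 to 0.0497), Pou2af1 (-0.133 to 0.569), Rps23 (-0.177 to 0.0763) and Tgfb2 (-1.26 to 0.629), each with the range of its values. With library weights the value became 1.11 for Il6, 0.523 for Lcn2, 0.126 for Cd2, 0.23 for Col1a1, 0.23 for Marcksl1, 0.122 for Clec4e, 0.0716 for Txn1, -0.004 for Hsp90ab1, 0.0726 for Mcm3 and 0.169 for Ptges. Without both libraries richest in erythroid RNA the value became 0.38 for Col1a1, 0.0474 for Marcksl1 and 0.224 for Mcm3. With 2 added before the log the value became 0.0104 for Tgfb2. The cause was not tested. The number of reads behind a value is unknown, so precision rests on 3 libraries a group.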

Other observations

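MHC class II genes were above 0 for the interaction in 12 of 12 tested members, against 46.8% of all genes, with a median of 0.375 and 0 members at an unadjusted p under 0.05. The median was 0.219 without wild-type PBS replicate 3 and 0.212 without knockout LPS replicate 2. All 12 had a knockout value below wild type under PBS, as did 5392 of the 9841 genes tested. The median difference of the list was -0.607 on the log2 scale. Cd74, the invariant chain, was at 2532 ± 84.1 FPKM in wild type and 1674 ± 324 FPKM in the knockout under PBS (SD, n = 3). Its interaction was 0.26 ± 0.31 (SE), and that of H2-Aa, an MHC class II chain, 0.65 ± 0.54. Cholesterol synthesis and efflux genes were below 0 in 15 of 20, with 2 lower and 2 higher at an unadjusted p under 0.05 and a median of -0.36, which was -0.234 without wild-type PBS replicate 3. Srebf2, the regulator of the pathway, had -0.36 ± 0.26 (SE). The lower members were Idi1 and Insig1, enzyme and regulator of sterol synthesis, and the higher ones were Ch25h, which makes 25-hydroxycholesterol, and Abca1, which exports cholesterol. Ch25h rose in both genotypes, by 3.03 in wild type and 3.92 in the knockout.

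The lowest interaction of all genes tested, -2.45, was that of the ribosomal protein gene Rps2. Its values were 140, 132 and 554 FPKM in wild type under PBS, 657, 846 and 81.3 FPKM in wild type under LPS, 521, 562 and 534 FPKM in the knockout under PBS and 78.8, 754 and 69.6 FPKM in the knockout under LPS. The libraries fell into a high and a low class across all groups but the knockout under PBS, and reads of this gene can be shared with near-identical copies. The other 31 ribosomal protein genes of the list ranged from -0.139 to 0.591, with Rplp1 at 0.08 ± 0.21 and Rps23 at -0.05 ± 0.22 (SE).

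Without wild-type PBS replicate 3, the library least like its group, 49 genes passed. The smallest adjusted p, 0.00395, was that of Gadd45b, a stress-induced signalling protein, with an interaction of 1.75 ± 0.16 (SE, limma). Arg2, the mitochondrial arginase, had 2.55 ± 0.32, Mxd1, a partner of Max, 2.36 ± 0.37, and Il1f9, an interleukin 36, 3.32 ± 0.55. Of the 6 lower genes the most negative was Tgfb2 at -1.26 ± 0.20. In that fit the 2 wild-type PBS libraries left share the spread estimated over all groups. With all 12 libraries the interaction of Tgfb2 was -0.04. Its mean log2(FPKM + 1) under LPS was 0.32 in wild type and 0.35 in the knockout. Gadd45b, Arg2, Mxd1 and Il1f9 had 1.39, 2.11, 2.02 and 2.87 with all 12 libraries.

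Other cell type lists are given by their median interaction and the members at an unadjusted p under 0.05. Monocyte genes had a median of 0.303 with 3 of 16 higher, and 0.518 with 6 higher without wild-type PBS replicate 3. Fn1, which encodes fibronectin, was at -0.52 ± 0.38 (SE) and Hp, haptoglobin, at 0.03 ± 0.79. Small macrophage and dendritic cell genes had 0.461 with 1 of 11 higher, and 4 higher without wild-type PBS replicate 3, with Cd83 at -0.26 ± 0.37 and Irf4 at 0.51 ± 0.39. B cell genes had -0.153 with 0 of 18, and -0.329 without wild-type PBS replicate 3, with Ly6d at -0.30 ± 0.50 and Cd79a, part of the B cell receptor, at -0.14 ± 0.43. The 7 genes of mature B and plasma cells had 0.194 with 0 members past that p, and 0.0611 without wild-type PBS replicate 3. Among them the factor Xbp1 was at 0.36 ± 0.20 and the coactivator Pou2af1 at 0.19 ± 0.47. Eosinophil genes had 0.297 with 0 of 3, with Alox15, which resident macrophages also express, at -1.31 ± 0.69 and Ear2 at 0.30 ± 0.22. Platelet genes had 0.62 with 0 of 2, with Pf4 at 0.56 ± 0.28 and Ppbp at 0.68 ± 0.74. Mesothelial and stromal genes had -0.805 with 1 of 2 lower, with the collagen gene Col1a1 at -0.13 ± 0.51 and the proteoglycan Dcn at -1.48 ± 0.66. Erythroid genes had 1.33 with 0 of 7, and 0.597 without both libraries richest in erythroid RNA, with the globin genes Hba-a1 at 1.83 ± 3.28 and Hbb-bs at 2.27 ± 3.77. The 4 Y-linked genes had -0.265 with 0 members past that p, with Eif2s3y at -0.33 ± 0.18 and Ddx3y at -0.33 ± 0.16. They summed to 37.3 to 48.7 FPKM over the libraries, so every library held Y-linked transcripts.

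Among the other pathways, MHC class I genes had 0.21 with 0 of 19, and 0.0425 without knockout LPS replicate 2, with B2m at 0.31 ± 0.20 and H2-D1 at 0.23 ± 0.23 (SE). Circadian clock genes had 0.494 with 2 of 14 higher and 1 lower, with the repressors Bhlhe40 at 0.67 ± 0.20 and Nfil3 at 0.57 ± 0.24. Heat shock genes had 0.476 with 2 of 13 higher, and 0.75 with 5 higher without wild-type PBS replicate 3, with the chaperones Hspa8 at 0.60 ± 0.47 and Hsp90ab1 at 0.11 ± 0.27. Genes of the unfolded protein response had 0.0556 with 1 of 21 higher and 1 lower, and 0.268 without wild-type PBS replicate 3, with the chaperones Hspa5 at 0.08 ± 0.41 and Calr at 0.20 ± 0.30. Metallothionein and zinc genes had -0.101 with 0 of 8 higher and 2 lower, and 0.0384 with 2 higher and 1 lower without wild-type PBS replicate 3, with Mt1 at 0.35 ± 0.42 and Mt2 at 0.91 ± 0.60. Replication and mitosis genes had -0.0397 with 0 of 22, and 0.0999 without both libraries richest in erythroid RNA, with Pcna, the sliding clamp, at -0.14 ± 0.24 and Mcm3, of the replicative helicase, at -0.01 ± 0.29. Genes of lipid mediator synthesis had 0.055 with 1 of 17 higher and 2 lower, and 5 lower without wild-type PBS replicate 3, with Alox5ap at 0.38 ± 0.32 and Ptges, a prostaglandin E synthase, at -0.59 ± 0.73.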
